A study of Mus musculus with 9 samples.

Results

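The genes described here are 38 imprinted genes that lie outside the Igf2 locus, taken by name from a list covering 16 imprinted domains, and all 38 are among the 24571 gene symbols used from the deposited table. Their RNA was measured in whole mouse hearts at E18.5, shortly before birth, in 3 wild-type, 3 heterozygous (Ctcf +/R567W) and 3 homozygous (Ctcf R567W/R567W) libraries from mice on a C57BL/6N background. The R567W allele was introduced into the germline by CRISPR/Cas9 editing and replaces an arginine of the CTCF zinc-finger region in every cell, so no tissue-specific driver or treatment was involved and wild-type hearts carry no added allele. Each library came from heart tissue frozen in its own tube, but the labels do not say that the libraries of a genotype are separate animals or litters, so p-values measure the spread between these libraries only.

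An imprinted gene is transcribed mainly or only from the copy inherited from one parent, because a control region was methylated in the egg or in the sperm and that mark is kept after fertilisation. Control regions act by serving as promoters of long non-coding RNAs that silence neighbours in cis, or as insulators bound by CTCF when they are unmethylated, and several domains therefore hold a maternally expressed gene beside a paternally expressed one. Many imprinted genes regulate growth and placental function before birth, are highly expressed in fetal mesoderm and are turned down after birth. Of the 38 members, 21 are known to be expressed from the paternal copy and 13 from the maternal copy, and 4 (Grb10, Ube3a, Blcap and Gnas) depend on the tissue or transcript. RNA levels do not tell the parental copies apart, so the values below are sums over both.

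Expression was deposited as TPM, which corrects for transcript length and library total but keeps no read depth, so the spread between libraries was the only measure of precision. Cardiomyocyte markers were abundant in every library (10 genes summing to 32870 to 48160 TPM), yet several hearts also carried RNA of neighbouring organs. In homozygous replicate 3 the thymocyte markers (15 genes) summed to 707 TPM, where none of the other 8 hearts exceeded 5.17 TPM, and the thymic epithelium markers (6 genes) summed to 230.3 TPM, where the others reached at most 10.3 TPM. Airway and lung markers (12 genes) were high in wild-type replicate 1 (2628 TPM) and heterozygous replicate 1 (1109 TPM), and liver markers (15 genes) in heterozygous replicate 1 (4182 TPM). Lower airway and lung sums, 52.8 TPM in homozygous replicate 1 and 38.5 TPM in wild-type replicate 2, still exceeded the 2.19 to 6.85 TPM of the remaining libraries. Xist was present in wild-type replicate 1, homozygous replicate 1 and all 3 heterozygous hearts and at most 0.05 TPM in the other 4 libraries. The Y-linked genes Ddx3y, Kdm5d, Uty and Eif2s3y were at 0 in every library with Xist and at 6.0 TPM or more in the other 4. The libraries with Xist thus read as female and the other 4 as male. Among the 13682 genes whose mean reached 1 TPM, the median log2 change was 0.23 between homozygous and wild-type hearts, 0.15 between heterozygous and wild-type hearts and 0.076 between homozygous and heterozygous hearts, so the changes of the members are given both as measured and relative to that median. Across all genes limma called 46 (26 higher, 20 lower) between homozygous and wild-type hearts, and after median-ratio scaling it called 39 higher and 199 lower. Ctcf itself, whose transcript carries the mutation, was not lower in the mutants, with 27.0 to 34.3 (wild type), 33.2 to 38.7 (heterozygous) and 38.9 to 50.2 TPM (homozygous).

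The members covered a wide range of levels. By the mean over the 9 libraries, 8 members exceeded 100 TPM, 14 lay between 10 and 100 TPM, 8 between 1 and 10 TPM and 8 under 1 TPM. Gnas, Mest, Meg3, Grb10 and Plagl1 together made 74.6% of the TPM of all 38. Gnas, which encodes the stimulatory G protein alpha subunit, was the most abundant at 844 ± 62.7 TPM (mean ± SD, n = 3) in wild-type hearts, followed by Mest, an alpha/beta hydrolase fold protein, at 615 ± 34.4 TPM. Their SDs show that the order of these 2 neighbours was clear, whereas Rian at 133 ± 18.6 TPM and Dlk1 at 126 ± 3.65 TPM did not differ beyond their spread. The 30 members whose mean reached 1 TPM were tested together with all other genes, and the 8 below that level (Phlda2, Slc22a18, Ascl2, Kcnq1ot1, Rtl1, Dio3, Rasgrf1 and Slc22a3) are given by their values.

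**Figure D1:**
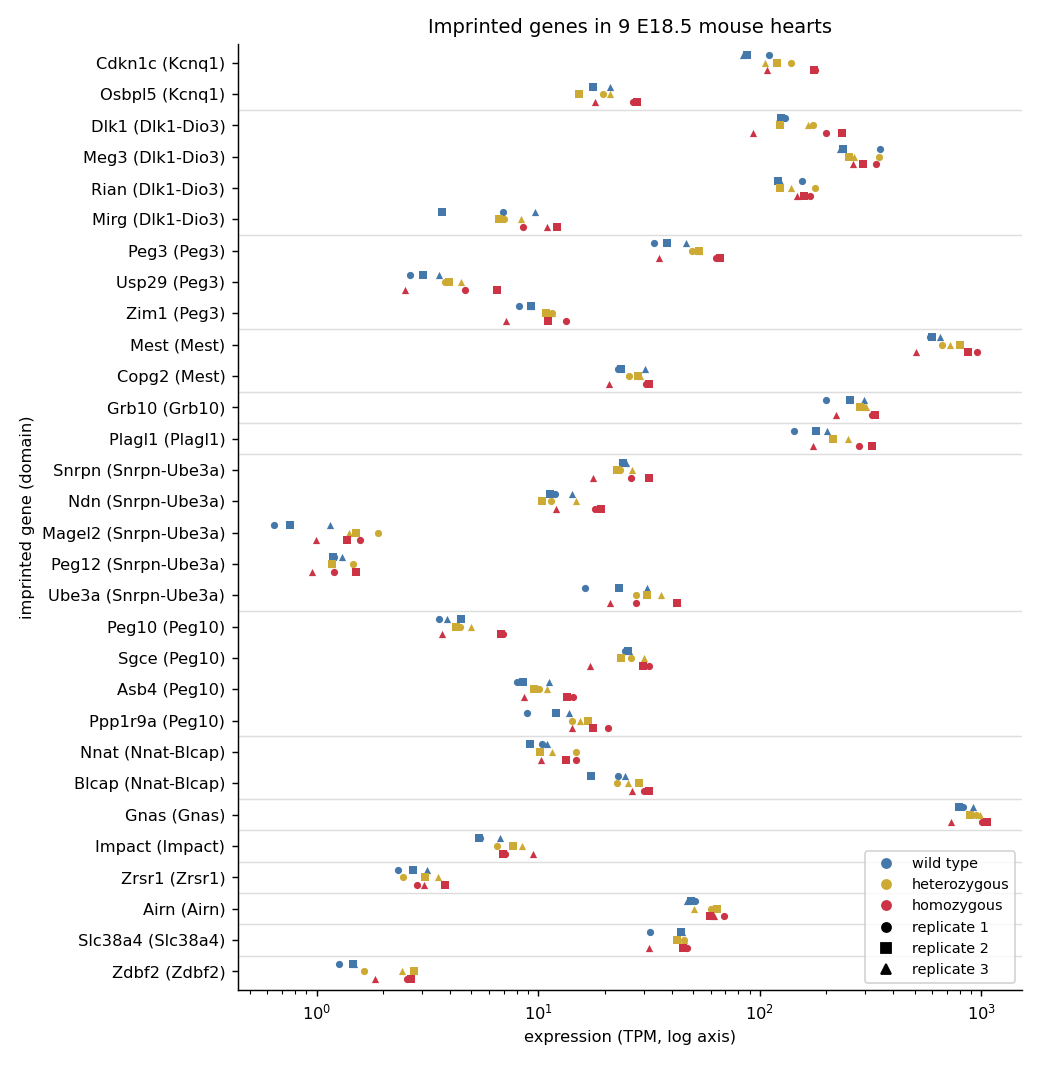
Expression of the 30 tested imprinted genes in each of the 9 hearts, grouped by imprinted domain, on a log10 axis of TPM. Colours mark the genotype and marker shapes the replicate number. The 8 genes with means under 1 TPM are not drawn. The genes run from Gnas near the top of the scale down to Peg12 with a mean of 1.24 TPM. All homozygous hearts lie above all wild-type hearts for 5 of the 30 tested genes (16.7%), against 22.3% of all genes.

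The first comparison asked whether homozygosity for the CTCF mutation altered the amount of RNA from these genes. With limma on log2(TPM + 1) none of the 30 tested members passed an adjusted p of 0.05, against 0.336% of all 13682 genes, and the lowest adjusted p among them was 0.115. At an unadjusted p under 0.05 stood 6 of 30 members (20.0%), namely Cdkn1c, Mirg, Ppp1r9a, Plagl1, Blcap and Airn, against 25.0% of all genes. All 3 homozygous hearts exceeded all 3 wild-type hearts for 5 members (16.7%; Ppp1r9a, Blcap, Impact, Airn and Zdbf2), where 22.3% of all genes did so, and no member lay wholly lower, where 2.38% of all genes did. These shares of members lay below those of all genes, so the counts alone show nothing about imprinted genes. The log2 change was above 0 for 28 of 30 members (93.3%), against 81.7% of all genes, and above the all-gene median for 20 of 30. The median member change exceeded the all-gene median by 0.11 on the log2 scale, with 0.098 over 9 maternal, 0.12 over 17 paternal and 0.049 over 4 tissue-dependent genes, while the median SE of a single member was 0.19. Under weights that lower the influence of deviating libraries (arrayWeights) limma called 19 of 30 members (63.3%) higher, together with 37.0% of all genes.

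**Figure D2:**
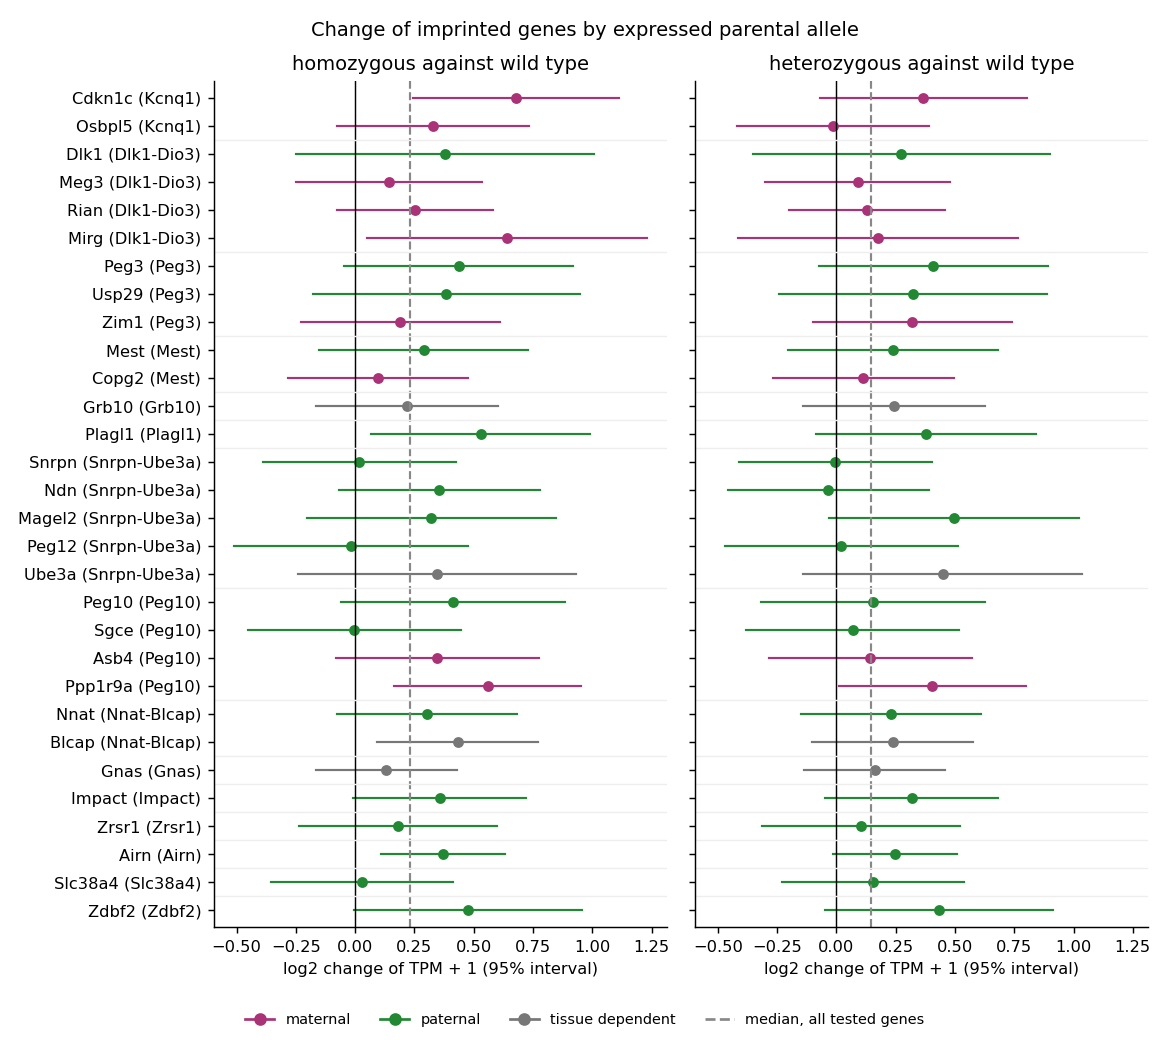
Change of the 30 tested imprinted genes on the log2(TPM + 1) scale with its 95% interval, for homozygous (left) and heterozygous (right) against wild-type hearts, coloured by the parental copy expressed; the dashed line is the median of all genes. In homozygous hearts the points run from Peg12 at -0.25 to Cdkn1c at 0.45 relative to the dashed line, and no gene passed the adjusted threshold in either panel.

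For 33 of the 38 members the RefSeq table (GRCm38.p6) gave the 250 bases before an annotated transcript start, in 50 windows. Cdkn1c had no window. Of the 50 windows 6 are printed with the members they belong to, for the reason given with each. In each window letters are in capitals where, on either strand, they match TGCCGC (the hexamer bound by ZFP57 when methylated) or AGGGGGC (the G-rich core of the CTCF motif). The hexamer was present in 8.68% of all 32851 windows and in 8 of the 50 member windows (16%), and the CTCF core in 9.43% of all windows and 9 of 50 member windows (18%). One more motif, GCCATNTT (the YY1 core), was present in 3.91% of all windows and in 2 of the 50 member windows (4%), those of Slc38a4 and Ube3a. Windows of a gene can overlap, as some of Mest and of Gnas do, so the same site can count more than once. The hexamer and the CTCF core hold mostly G and C letters, and the shares were not adjusted for the base content of the windows. These matches describe letters in a window and not binding.

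The Kcnq1 domain on chromosome 7 holds growth-restraining genes expressed from the maternal copy and a paternal non-coding RNA, Kcnq1ot1, that silences them in cis. Cdkn1c (chr7:143458339-143461050, minus strand), the inhibitor of cyclin-dependent kinases p57, had the highest relative change of all tested members. It was at 111, 88.0 and 83.7 (wild type), 139, 120.0 and 106 (heterozygous) and 177, 177 and 108 TPM (homozygous), so homozygous replicates 1 and 2 lay above every other library, while homozygous replicate 3 lay between wild-type replicates 1 and 2. The genotypes averaged 94.1 ± 14.4, 121 ± 16.5 and 154 ± 39.6 TPM in the same order (mean ± SD, n = 3). Its change from wild-type to homozygous hearts on the log2 scale was 0.68 (SE 0.20, adjusted p = 0.115), with a 95% interval of 0.24 to 1.11. Osbpl5, an oxysterol-binding protein family member, was at 17.7, 17.7 and 21.1 (wild type), 19.7, 15.4 and 21.2 (heterozygous) and 26.9, 27.9 and 18.1 TPM (homozygous). As for Cdkn1c, homozygous replicates 1 and 2 were the 2 highest libraries and replicate 3 lay within the wild-type range, and the change of 0.33 (SE 0.18, adjusted p = 0.27) was not called. The other members of the domain stayed near 0, with Slc22a18, an organic cation transporter family member, at 0.16 to 1.12 TPM, Phlda2, which restrains placental growth, at 0 to 1.60 TPM and Ascl2, a trophoblast transcription factor, at 0 to 0.28 TPM. Kcnq1ot1 itself was at 0.19, 0.22 and 0.21 (wild type), 0.32, 0.34 and 0.21 (heterozygous) and 0.3, 0.27 and 0.41 TPM (homozygous), and since the strand of the libraries was not given in the sources used here, its reads cannot be told apart from those of Kcnq1 where they overlap.

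The Dlk1-Dio3 domain on chromosome 12 expresses the protein-coding genes Dlk1, Rtl1 and Dio3 from the paternal copy and the long non-coding RNAs Meg3, Rian and Mirg from the maternal copy. The windows before the Dlk1 start (chr12:109452573-109452822, plus strand) and the Meg3 start (chr12:109540746-109540995, plus strand) are shown as the opposed paternal and maternal promoters, with the hexamer in capitals in Meg3 and no match in Dlk1.
Dlk1: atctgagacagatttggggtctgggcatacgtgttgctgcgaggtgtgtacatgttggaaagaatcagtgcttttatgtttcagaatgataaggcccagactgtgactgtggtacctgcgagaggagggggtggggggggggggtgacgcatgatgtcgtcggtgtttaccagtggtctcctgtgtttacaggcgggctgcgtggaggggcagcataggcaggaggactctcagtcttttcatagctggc
Meg3: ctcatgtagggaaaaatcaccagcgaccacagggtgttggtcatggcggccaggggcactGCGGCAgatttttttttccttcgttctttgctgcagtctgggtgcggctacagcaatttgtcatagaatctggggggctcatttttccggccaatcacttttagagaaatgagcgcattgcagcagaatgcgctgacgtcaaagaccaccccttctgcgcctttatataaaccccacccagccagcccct

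Dlk1 (chr12:109452823-109463336, plus strand), a transmembrane and secreted EGF-repeat protein, was at 129.9, 125 and 123 (wild type), 173, 123 and 165 (heterozygous) and 199, 236 and 93.3 TPM (homozygous). Wild-type hearts lay close together (SD 3.65 TPM), whereas homozygous replicates 1 and 2 were the highest of the 9 libraries and homozygous replicate 3 the lowest. The change of 0.38 (SE 0.28, adjusted p = 0.396) had the largest SE of the 30 tested members. Meg3 (chr12:109541001-109571726, plus strand) was at 349.6, 237 and 231 (wild type), 344, 252 and 267 (heterozygous) and 334, 292 and 264 TPM (homozygous), and its highest and lowest values were both from wild-type hearts. Its change was 0.14 (SE 0.18, adjusted p = 0.605), below the all-gene median by 0.088. Without wild-type replicate 1, one of the hearts with lung RNA, Meg3 lay 0.16 above that median, and 0.19 above it without the 3 hearts highest in markers of other organs. Rian, the host of C/D box snoRNAs, was at 155, 121 and 124 (wild type), 178, 123 and 139 (heterozygous) and 169, 158 and 147 TPM (homozygous). The groups overlapped, with a change of 0.25 (SE 0.15, adjusted p = 0.294). Mirg, a host of microRNAs, was at 6.97, 3.68 and 9.72 (wild type), 6.98, 6.67 and 8.41 (heterozygous) and 8.57, 12.2 and 10.96 TPM (homozygous). Here homozygous replicate 1 lay below wild-type replicate 3, so the groups overlapped although the change was 0.64 (SE 0.27, adjusted p = 0.176). The 95% intervals of Meg3 (-0.25 to 0.54) and Rian (-0.076 to 0.58) both included 0. Rtl1, a retrotransposon-derived protein, ranged from 0.27 to 0.53 TPM over the 9 libraries, and Dio3, the deiodinase that inactivates thyroid hormone, was listed at 0 in all wild-type hearts and at 0.06, 0.19 and 0.23 TPM in homozygous hearts.

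The Peg3 domain on chromosome 7 holds Peg3 and Usp29, expressed from the paternal copy and transcribed away from each other out of one control region, and Zim1, expressed from the maternal copy. The window before the Peg3 start (chr7:6730420-6730669, minus strand) is shown because it overlaps that of Usp29 (chr7:6730333-6730582, plus strand), and it holds no match to the motifs searched.
Peg3: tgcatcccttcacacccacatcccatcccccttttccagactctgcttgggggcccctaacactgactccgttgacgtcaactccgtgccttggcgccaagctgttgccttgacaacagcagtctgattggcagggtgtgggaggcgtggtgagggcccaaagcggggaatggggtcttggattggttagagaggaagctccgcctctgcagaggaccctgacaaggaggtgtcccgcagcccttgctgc

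Peg3 (chr7:6703892-6730431, minus strand), a zinc-finger DNA-binding protein, was at 33.3, 38 and 46.4 (wild type), 49.3, 53.5 and 53.0 (heterozygous) and 63.5, 66.0 and 35.3 TPM (homozygous). All heterozygous hearts were above all wild-type hearts, as were homozygous replicates 1 and 2, but homozygous replicate 3 lay within the wild-type range. Its change was 0.44 (SE 0.22, adjusted p = 0.232) in homozygous and 0.41 (SE 0.22, adjusted p = 0.672) in heterozygous hearts. Usp29, a ubiquitin-specific protease family member, was at 2.64, 3.02 and 3.58 (wild type), 3.80, 3.96 and 4.51 (heterozygous) and 4.66, 6.51 and 2.51 TPM (homozygous), again with all heterozygous hearts and homozygous replicates 1 and 2 above the wild-type hearts, and with homozygous replicate 3 as the lowest of the 9. For Usp29 the change was 0.39 (SE 0.25, adjusted p = 0.341) in homozygous and 0.32 (SE 0.25, adjusted p = 0.691) in heterozygous hearts. Zim1, a zinc-finger protein, was at 8.17, 9.32 and 9.16 (wild type), 11.5, 10.8 and 11.6 (heterozygous) and 13.4, 11.1 and 7.18 TPM (homozygous). Again every heterozygous heart exceeded every wild-type heart and homozygous replicate 3 was the lowest library, with changes of 0.19 (SE 0.19, adjusted p = 0.521) in homozygous and 0.32 (SE 0.19, adjusted p = 0.672) in heterozygous hearts.

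Mest and Copg2 on chromosome 6 are expressed from opposite parental copies and overlap at their 3′ ends on opposite strands, so without strand some reads may count for either gene. The windows before a Mest start (chr6:30737800-30738049, plus strand) and the Copg2 start (chr6:30896795-30897044, minus strand) are shown because both hold the hexamer, 2 times in Mest and 1 time in Copg2, and Copg2 also holds the CTCF core 3 times.
Mest: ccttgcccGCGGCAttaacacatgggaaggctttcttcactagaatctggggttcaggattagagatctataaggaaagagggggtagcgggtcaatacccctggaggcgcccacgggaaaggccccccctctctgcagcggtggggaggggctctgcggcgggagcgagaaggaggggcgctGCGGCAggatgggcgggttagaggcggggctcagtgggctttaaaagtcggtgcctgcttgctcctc
Copg2: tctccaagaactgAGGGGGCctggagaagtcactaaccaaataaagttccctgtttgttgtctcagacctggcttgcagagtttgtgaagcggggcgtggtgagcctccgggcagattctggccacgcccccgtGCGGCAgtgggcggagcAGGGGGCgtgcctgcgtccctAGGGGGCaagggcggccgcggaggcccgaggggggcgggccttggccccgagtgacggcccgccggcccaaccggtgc

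Mest (chr6:30723547-30748465, plus strand) was at 589, 602 and 654 (wild type), 662, 802 and 719 (heterozygous) and 960.5, 869 and 509 TPM (homozygous). Its wild-type values were tight and all heterozygous hearts lay above them, while the homozygous hearts held both the highest library (replicate 1) and the lowest (replicate 3). The change was 0.29 (SE 0.20, adjusted p = 0.357) in homozygous and 0.24 (SE 0.20, adjusted p = 0.698) in heterozygous hearts. Copg2, a coatomer subunit of COPI vesicles, was at 22.9, 23.7 and 30.3 (wild type), 25.8, 28.4 and 28.8 (heterozygous) and 30.7, 31.7 and 20.8 TPM (homozygous). Its groups overlapped in every comparison, and its change of 0.10 (SE 0.17, adjusted p = 0.73) lay below the all-gene median by 0.14, a side kept in 21 of 23 settings.

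The Peg10 domain, also on chromosome 6, holds Peg10 and Sgce, expressed from the paternal copy, and Asb4 and Ppp1r9a, expressed from the maternal copy. Peg10, a retrotransposon-derived gag-like protein, was at 3.58, 4.50 and 3.89 (wild type), 4.42, 4.25 and 4.99 (heterozygous) and 6.95, 6.81 and 3.68 TPM (homozygous). Homozygous replicates 1 and 2 were above all others and replicate 3 was next to the lowest wild-type heart, giving a change of 0.41 (SE 0.21, adjusted p = 0.243). Sgce, which encodes epsilon-sarcoglycan and starts head to head with Peg10, was at 24.8, 25.4 and 25.8 (wild type), 26.3, 23.7 and 30.1 (heterozygous) and 31.7, 29.6 and 17.1 TPM (homozygous), with homozygous hearts at both ends of the range and a change of -0.003 (SE 0.20, adjusted p = 0.995). Asb4, an ankyrin repeat and SOCS box protein, was at 8.01, 8.52 and 11.2 (wild type), 10.1, 9.62 and 10.9 (heterozygous) and 14.4, 13.5 and 8.64 TPM (homozygous). Its groups overlapped, with a change of 0.35 (SE 0.19, adjusted p = 0.273). Ppp1r9a (chr6:4902917-5165661, plus strand), the actin-binding phosphatase subunit neurabin-1, was at 8.95, 12.1 and 13.8 (wild type), 14.2, 16.8 and 15.5 (heterozygous) and 20.6, 17.7 and 14.3 TPM (homozygous). All heterozygous and all homozygous hearts were above all wild-type hearts, including homozygous replicate 3, and the changes were 0.56 (SE 0.18, adjusted p = 0.125) in homozygous and 0.40 (SE 0.18, adjusted p = 0.672) in heterozygous hearts. Ppp1r9a was the one member with an unadjusted p under 0.05 in heterozygous hearts.

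Plagl1 and Grb10 are growth regulators of opposite sign that stand alone in their domains in this list. The window before a Plagl1 start (chr10:13090582-13090831, plus strand) is shown because it holds 1 hexamer and belongs to the paternally expressed member with the highest change.
Plagl1: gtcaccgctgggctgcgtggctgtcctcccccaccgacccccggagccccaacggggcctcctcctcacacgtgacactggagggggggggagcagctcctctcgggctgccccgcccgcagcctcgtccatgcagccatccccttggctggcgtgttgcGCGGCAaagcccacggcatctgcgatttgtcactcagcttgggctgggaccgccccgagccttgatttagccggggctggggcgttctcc

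Plagl1 (chr10:13060504-13131694, plus strand), a zinc-finger transcription factor, was at 143, 179 and 201 (wild type), 213, 214 and 249.5 (heterozygous) and 280.2, 319.7 and 174 TPM (homozygous). Heterozygous hearts were all above wild-type hearts, homozygous replicates 1 and 2 were above both groups, and homozygous replicate 3 lay within the wild-type range. The change was 0.53 (SE 0.21, adjusted p = 0.161) in homozygous and 0.38 (SE 0.21, adjusted p = 0.672) in heterozygous hearts. Grb10, an adaptor that inhibits insulin and IGF receptor signalling and is expressed from the maternal copy in most tissues, was at 199, 255 and 296 (wild type), 292, 284 and 301 (heterozygous) and 320.0, 333 and 222 TPM (homozygous). Wild-type hearts alone spanned from 199 to 296 TPM, the groups overlapped, and the change of 0.22 (SE 0.17, adjusted p = 0.423) lay at the all-gene median.

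The Snrpn-Ube3a domain on chromosome 7, the mouse counterpart of the Prader-Willi and Angelman region, had 5 tested members, none without overlap between homozygous and wild-type hearts. Snrpn, a small nuclear ribonucleoprotein, was at 23.8, 24.1 and 24.9 (wild type), 23.5, 22.6 and 26.5 (heterozygous) and 26.4, 31.8 and 17.6 TPM (homozygous), with a change of 0.018 (SE 0.18, adjusted p = 0.958). Its wild-type values ran from 23.8 to 24.9 TPM, and 28.6% of its 31-base words are shared with an overlapping gene model, so its reads could be split. Ndn, the MAGE family protein necdin, was at 11.9, 11.3 and 14.2 (wild type), 11.5, 10.4 and 14.8 (heterozygous) and 18.0, 19.3 and 12.1 TPM (homozygous), with a change of 0.35 (SE 0.19, adjusted p = 0.259) in homozygous and -0.035 (SE 0.19) in heterozygous hearts. Magel2, a MAGE protein of endosomal trafficking, was low at 0.64, 0.76 and 1.15 (wild type), 1.89, 1.51 and 1.40 (heterozygous) and 1.57, 1.37 and 0.99 TPM (homozygous). Its wild-type mean was 0.85 TPM, so it passed the filter only through its mutant values. Heterozygous hearts were wholly above wild-type hearts and gave the highest change of any member in that comparison, 0.50 (SE 0.24, adjusted p = 0.672), while the change was 0.32 (SE 0.24, adjusted p = 0.389) in homozygous hearts. Peg12, a GSK3-binding FRAT family protein, was at 1.2, 1.19 and 1.30 (wild type), 1.46, 1.17 and 1.17 (heterozygous) and 1.2, 1.5 and 0.95 TPM (homozygous), with the lowest relative change of all members at -0.25. Ube3a, the E3 ubiquitin ligase expressed from the maternal copy in neurons and from both copies elsewhere, was at 16.3, 23.1 and 31.1 (wild type), 27.8, 30.9 and 36.0 (heterozygous) and 27.6, 42.4 and 21.1 TPM (homozygous). The groups overlapped, with a change of 0.34 (SE 0.27, adjusted p = 0.407). Neuron markers (9 genes) summed to 6.36 to 13.1 TPM over the 9 libraries.

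Nnat lies within the span of Blcap on the opposite strand of chromosome 2, and reads from any stretch that both transcribe cannot be told apart without strand. Nnat, the small membrane proteolipid neuronatin, was at 10.4, 9.17 and 10.9 (wild type), 14.8, 10.2 and 11.5 (heterozygous) and 14.9, 13.4 and 10.3 TPM (homozygous). Its groups overlapped, with a change of 0.30 (SE 0.17, adjusted p = 0.279). Blcap (chr2:157556362-157571274, minus strand), a small membrane protein, was at 23.0, 17.3 and 24.8 (wild type), 22.6, 28.6 and 25.5 (heterozygous) and 29.9, 31.6 and 26.6 TPM (homozygous). Every homozygous heart was above every wild-type heart, replicate 3 by the smallest distance, and the change was 0.43 (SE 0.15, adjusted p = 0.139). Gnas, on the same chromosome, was at 825, 792 and 913 (wild type), 949.9, 887 and 991 (heterozygous) and 1011, 1059 and 733 TPM (homozygous). Homozygous replicate 3 was the lowest library of all, the groups overlapped, and the change was 0.13 (SE 0.13, adjusted p = 0.53). The single Gnas symbol sums maternal, paternal and biallelic transcripts and hence does not show any one of them.

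The remaining members were the only tested genes of their domains. Airn (chr17:12741311-12860136, plus strand), the paternal long non-coding RNA antisense to Igf2r that silences its neighbours, was at 51.1, 48.7 and 47.0 (wild type), 60.5, 64.3 and 50.7 (heterozygous) and 69.2, 59.7 and 62.0 TPM (homozygous). Homozygous hearts were all above wild-type hearts, at 63.6 ± 4.92 against 49.0 ± 2.08 TPM, and replicate 3 was close to replicate 2, with a change of 0.37 (SE 0.12, adjusted p = 0.126). Its SE was the smallest of all members, but the reads of Airn and Igf2r cannot be told apart where they overlap. Zdbf2, a zinc-finger DBF-type protein, was at 1.26, 1.46 and 1.48 (wild type), 1.64, 2.75 and 2.42 (heterozygous) and 2.55, 2.68 and 1.84 TPM (homozygous). Both mutant groups were wholly above the wild-type hearts, with changes of 0.48 (SE 0.22, adjusted p = 0.202) in homozygous and 0.43 (SE 0.22, adjusted p = 0.672) in heterozygous hearts. Impact, an inhibitor of GCN2 activation, was at 5.47, 5.43 and 6.72 (wild type), 6.55, 7.71 and 8.45 (heterozygous) and 7.07, 6.94 and 9.53 TPM (homozygous). Its homozygous hearts were above wild-type hearts through small distances for replicates 1 and 2, and replicate 3 was here the highest library, with a change of 0.36 (SE 0.16, adjusted p = 0.206). Zrsr1, a retrogene of the U2AF-related splicing factor family that lies within Commd1, was at 2.32, 2.73 and 3.14 (wild type), 2.46, 3.08 and 3.52 (heterozygous) and 2.84, 3.79 and 3.06 TPM (homozygous), with a change of 0.18 (SE 0.19, adjusted p = 0.539). Slc38a4, a neutral amino acid transporter, was at 32.1, 44.1 and 44.6 (wild type), 45.4, 42.4 and 45.6 (heterozygous) and 47.2, 45.2 and 31.6 TPM (homozygous). Its groups overlapped and its change of 0.03 (SE 0.17, adjusted p = 0.924) lay 0.20 below the all-gene median.

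Homozygous replicate 3 stood apart from the other homozygous hearts in many members. Its value was the lowest of all 9 libraries for 10 of the 30 tested members, whereas homozygous replicate 1 was the highest of all 9 for 10 members and homozygous replicate 2 for 15. Against the wild-type hearts, 25 members (83.3%) in homozygous replicate 1, 29 (96.7%) in replicate 2 and 6 (20.0%) in replicate 3 exceeded all 3 wild-type values, compared with 57.6%, 60.7% and 37.6% of all genes in the same libraries. The median deviation of the members from their 9-library means, relative to that of all genes, was 0.12 and 0.13 on the log2 scale in homozygous replicates 1 and 2 and -0.19 in replicate 3, and lay between -0.080 and 0.067 in the wild-type and heterozygous hearts. Homozygous replicate 3 was at -0.255 for paternal members, below the -0.092 of wild-type replicate 3, but for maternal members it was at -0.115, close to the -0.111 of wild-type replicate 3. Replicate 3 was also the library with the thymus markers, with the lowest sum of fibroblast and epicardium markers (7 genes; 556 TPM against 740 to 1242 TPM in the other 8) and with an endothelial sum (6 genes) of 226 TPM against 224 to 394 TPM. The cardiomyocyte sum (10 genes) of replicate 3 was the lowest as well, at 32870 TPM against 40770 to 48160 TPM in the other 8. The fibroblast and epicardium sums were highest in homozygous replicates 1 and 2, at 1240 and 1242 TPM. In bulk hearts fewer cells of a type and less RNA per cell cannot be told apart, and the part of these markers in the members' values was not tested.

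**Figure D3:**
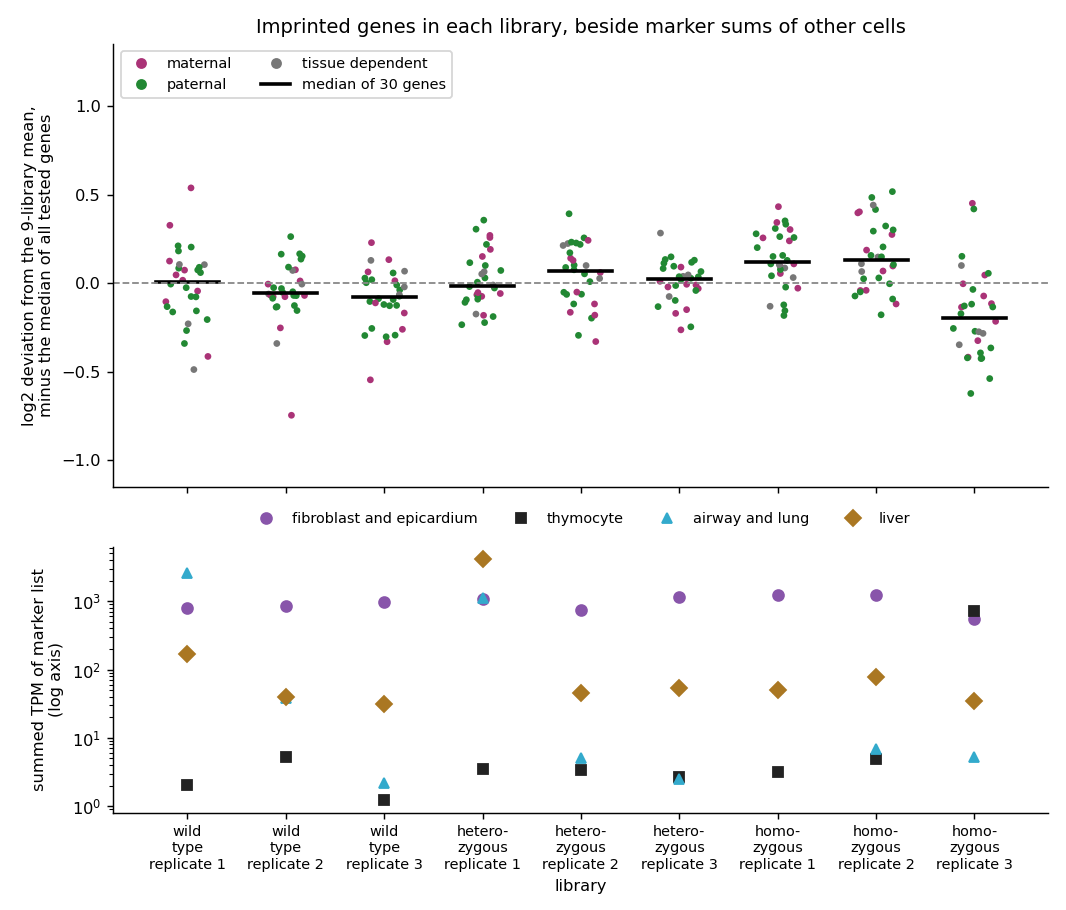
Top: deviation of each of the 30 tested imprinted genes from its 9-library mean on the log2 scale, less the all-gene median of that library, with a black bar at the median of the 30 genes. Bottom: summed TPM of marker genes of fibroblasts and epicardium, thymocytes, airway and lung, and liver, on a log10 axis; homozygous replicate 3 has both the lowest bar at -0.19 and the thymocyte sum of 707 TPM.

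Without homozygous replicate 3 limma called 5 of 30 members (16.7%) between homozygous and wild-type hearts, against 2.07% of 13498 genes, and all 5 were higher. They were Cdkn1c with a change of 0.91 (SE 0.14, adjusted p = 0.0228), Mest with 0.57 (SE 0.10, adjusted p = 0.0302), Plagl1 with 0.79 (SE 0.14, adjusted p = 0.0355), Dlk1 with 0.78 (SE 0.15, adjusted p = 0.0371) and Peg3 with 0.72 (SE 0.14, adjusted p = 0.0391). This heart is singled out here with its values known, and the fit rests on 2 homozygous hearts. At an unadjusted p under 0.05 stood 18 members (60.0%), against 33.6% of all genes, and the median member change exceeded that of all genes by 0.19 instead of 0.11. The 3 libraries with the highest thymus, lung or liver marker sums were also left out together, leaving 2 hearts per genotype. Wild-type replicate 2 and homozygous replicate 1, with lower airway and lung sums, stayed in. In that fit limma called Cdkn1c alone, with a change of 1.03 (SE 0.12, adjusted p = 0.0132), among 31 members (3.23%), against 0.395% of all genes. An unadjusted p under 0.05 was met by 19 members (61.3%), against 19.5% of all genes. Both the 31 and the 19 include Slc22a3, which passed the filter in that fit only through its homozygous values. A different library also mattered: without wild-type replicate 3, limma called Mirg, with a change of 0.91 (SE 0.24, adjusted p = 0.0388), and Ppp1r9a, with 0.69 (SE 0.18, adjusted p = 0.039), which made 6.67% of members where 15.8% of all genes were called. The genes called thus depended on which heart was left out. The median member change stayed above the all-gene median, but by only 0.035 without homozygous replicate 1 and 0.040 without homozygous replicate 2.

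**Figure D4:**
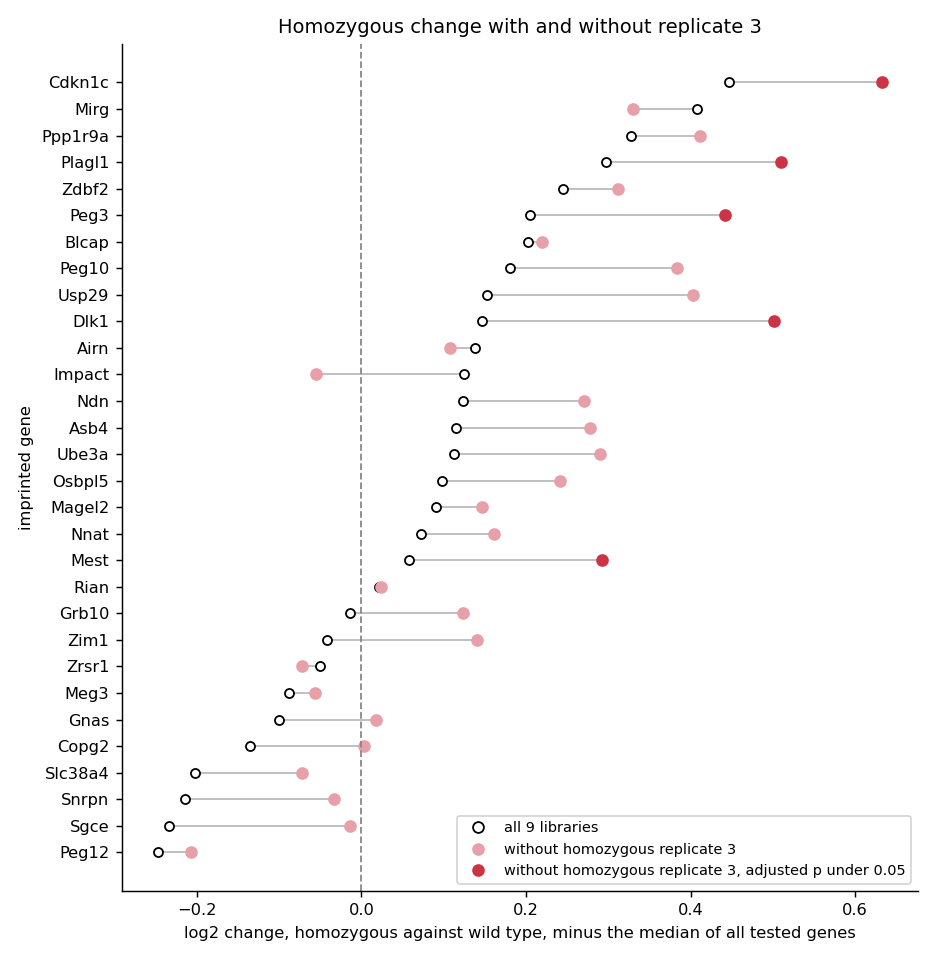
Change of the 30 tested imprinted genes between homozygous and wild-type hearts on the log2(TPM + 1) scale, relative to the all-gene median, with all 9 libraries (open circles) and without homozygous replicate 3 (filled circles, red where the adjusted p was under 0.05). Leaving out this heart moved most genes up, with Cdkn1c, Plagl1, Dlk1, Peg3 and Mest in red. It moved Impact, Mirg, Airn and Zrsr1 down, Impact the most.

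The second comparison asked whether one mutant Ctcf copy was enough for a difference. Of the 30 tested members limma called none between heterozygous and wild-type hearts, where 0.0146% of all genes were called, and 1 member (3.33%) had an unadjusted p under 0.05, against 6.87% of all genes. The heterozygous hearts were wholly above the wild-type hearts for 8 members (26.7%), namely Peg3, Usp29, Zim1, Mest, Plagl1, Magel2, Ppp1r9a and Zdbf2, where 12.8% of all genes were, and wholly below for none, where 1.03% of all genes were. All 3 genes of the Peg3 domain were among the 8. The members' median change exceeded the all-gene median by 0.087, with -0.005 over maternal and 0.092 over paternal genes. Without wild-type replicate 1 these were 0.148 and 0.149, and the maternal median took the other sign in 10 of 23 settings. All heterozygous hearts expressed Xist and lacked the Y-linked RNAs, but only 1 wild-type heart did, so sex and genotype are partly confounded in this comparison. With log2(Xist TPM + 1) as a covariate the relative median was -0.061, so its direction turned with that covariate. Homozygous and heterozygous hearts were compared with the same 3 wild-type libraries, and their changes are therefore not independent of each other.

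Between homozygous and heterozygous hearts limma called no member, against 0.0439% of all genes, and none had an unadjusted p under 0.05, against 7.15% of all genes. Mirg was the one member with all homozygous hearts above all heterozygous hearts (3.33%, against 12.0% of all genes), and no member lay wholly below, against 3.85% of all genes. The highest changes were 0.46 (SE 0.27, adjusted p = 0.77) for Mirg, 0.39 (SE 0.19, adjusted p = 0.729) for Ndn and 0.34 (SE 0.18, adjusted p = 0.753) for Osbpl5, and the lowest was -0.17 (SE 0.24, adjusted p = 0.894) for Magel2. The members' median lay 0.019 below the all-gene median, with 12 of 30 above it. Without homozygous replicate 3 it lay 0.074 above with 23 of 30 members above it, and the direction turned in 7 of 23 settings.

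Where maternal and paternal genes share a domain, their ratio compares both within one heart. In 6 pairs with both genes tested, the log2 ratio of the maternal to the paternal gene, each as TPM + 1, was compared by exact permutation tests, two-sided, for which 3 against 3 libraries allow no p under 0.1. Ppp1r9a over Sgce was -1.37, -1.01 and -0.85 in wild-type, -0.84, -0.475 and -0.92 in heterozygous and -0.59, -0.71 and -0.24 in homozygous hearts. All homozygous ratios exceeded all wild-type ratios, by a mean of 0.56 (exact permutation p = 0.1, adjusted p = 0.9 over 18 tests), and this was the only one of the 18 comparisons without overlap. Meg3 over Dlk1 was 1.42, 0.92 and 0.91 in wild-type and 0.74, 0.31 and 1.49 in homozygous hearts, so replicate 3 lay on the far side of the wild-type hearts from the other homozygous hearts, and the mean difference of -0.235 had an exact permutation p of 0.5. The mean differences between homozygous and wild-type hearts were -0.13 for Rian over Dlk1, -0.25 for Zim1 over Peg3, -0.19 for Copg2 over Mest and -0.066 for Asb4 over Peg10, with exact permutation p-values from 0.3 to 0.8. Without homozygous replicate 3, singled out with its values known, 4 of the 6 ratios separated homozygous from wild-type hearts. Ppp1r9a over Sgce was then higher in homozygous hearts, and Meg3 over Dlk1, Rian over Dlk1 and Copg2 over Mest were lower. Meg3 over Dlk1 was at 0.74 and 0.31 against 0.91 to 1.42 in wild-type hearts. The ratios over Dlk1 share that gene and are not separate results. With 2 against 3 libraries no test reaches the usual threshold, and ratios of other gene pairs were not counted for comparison.

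**Figure D5:**
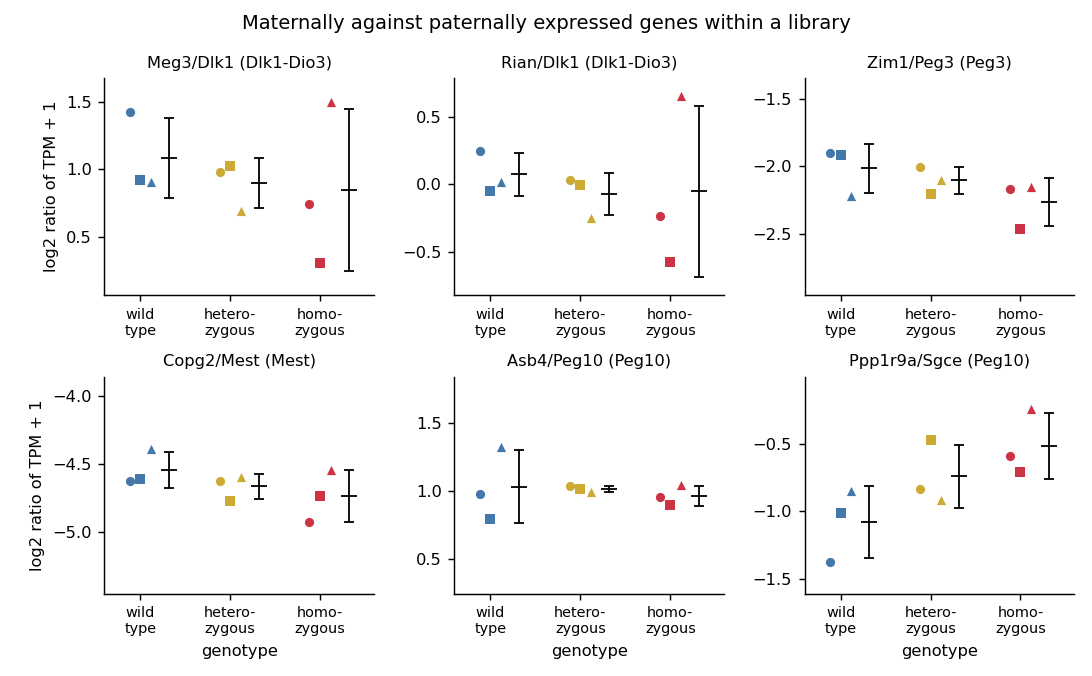
Log2 ratio of the maternal to the paternal gene within each of the 9 hearts for 6 pairs of neighbours, with bars at the mean ± SD of each genotype (n = 3). The genotypes overlap in each pair except Ppp1r9a over Sgce, where the homozygous ratios (-0.71 to -0.24) lie above the wild-type ratios (-1.37 to -0.85).

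Among the 8 members under 1 TPM, Slc22a3, an organic cation transporter silenced by Airn in the placenta, had the clearest order of groups. It was at 0.07, 0.42 and 0.14 (wild type), 0.77, 0.64 and 0.81 (heterozygous) and 1.42, 2.7 and 1.04 TPM (homozygous), so the lowest homozygous heart exceeded the highest heterozygous heart, and the lowest heterozygous heart the highest wild-type heart, with means ± SD of 0.21 ± 0.1852, 0.74 ± 0.08888 and 1.72 ± 0.8697 TPM. No other member was without overlap in all 3 comparisons. The share of all genes with such an order was not counted, and Slc22a3 was picked from the members by this order. It therefore shows nothing beyond its own values. Slc22a18 was at 0.39, 0.38 and 0.16 (wild type), 0.78, 0.21 and 0.48 (heterozygous) and 1.12, 0.71 and 0.78 TPM (homozygous), and its homozygous hearts were also wholly above the wild-type hearts. With Phlda2, Kcnq1ot1 and Dio3 this order held for 5 of the 8 members, against 6.89% of the 10889 untested genes seen in any library; of those genes, 49.5% were listed at 0 in at least 5 libraries, which was so for 1 of the 8 members. Rasgrf1, a Ras guanine nucleotide exchange factor, was at most 0.04 TPM in any library. These members were below the filter of the fit over all 9 libraries, because a value under 1 TPM may rest on few reads. With no filter all 38 members were tested and limma called none. Without the 3 hearts highest in markers of other organs Slc22a3 passed the filter, but only through its homozygous values of 1.42 and 2.7 TPM. All its other values in that fit were under 1 TPM. Its limma change there, 1.23 (SE 0.32, adjusted p = 0.141), therefore adds no separate evidence for its order.

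For the wider set of imprinted genes, 23 of 33 others were tested. None was called between homozygous and wild-type hearts, 4 had an unadjusted p under 0.05 where 25.0% of all genes did, and their median change lay 0.13 below the all-gene median with 10 of 23 above it. The highest was Begain, beside Dlk1 on chromosome 12, at 1.49, 0.86 and 1.37 (wild type), 2.79, 2.5 and 1.23 (heterozygous) and 3.98, 2.89 and 4.22 TPM (homozygous), a change of 1.07 (SE 0.26, adjusted p = 0.097) that all 3 homozygous hearts shared. The lowest was Nap1l5, at 1.98, 1.77 and 0.91 TPM (wild type) against 0.82, 0.75 and 0.89 TPM (homozygous), a change of -0.46 (SE 0.26, adjusted p = 0.268). Its heterozygous and homozygous means, 0.927 and 0.82 TPM, were under 1 TPM. It thus passed the filter only through its wild-type values, and its place as lowest adds no separate evidence of a decrease. The list on imprint maintenance (19 genes) covers more than genes that keep imprints, as it holds Dnmt3a, Dnmt3b, Dnmt3l, Tet1, Tet2, Tet3 and Ctcfl. Of the 19, 16 were tested and none was called. Among the 16, 8 had an unadjusted p under 0.05, against the same 25.0% of all genes, and their median lay 0.12 above that of all genes. Setdb1, a histone H3 lysine methyltransferase, was the highest at 8.08, 9.03 and 14.3 TPM (wild type) against 15.5, 16.2 and 17.6 TPM (homozygous), a change of 0.64 (SE 0.19, adjusted p = 0.116), and Zfp57, which binds the methylated hexamer, was the lowest (0.19, SE 0.15, adjusted p = 0.416). At the Igf2 locus, which is not among the members, neither H19 (a change of 0.31, SE 0.17, adjusted p = 0.274) nor Igf2 (0.32, SE 0.20, adjusted p = 0.321) was called.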

How the data were processed

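RNA from E18.5 hearts of 3 wild-type, 3 heterozygous and 3 homozygous Ctcf R567W mice was captured with mRNA beads and sequenced. The deposited table holds TPM per gene symbol and library, which the authors made with Trim Galore, STAR on mm10 and RSEM; DESeq2 is also named in the submitters' processing notes. Neither the annotation version nor whether strand was used in counting was given in the sources used here. Of 24597 symbols, 26 read as dates and were dropped. TPM keeps no depth, so precision rests on the spread between libraries.

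The 13682 genes that averaged 1 TPM or more across all 9 libraries were tested on log2(TPM + 1) with limma 3.58.1 (R 4.3.3; empirical Bayes with a mean trend, two-sided) in one fit over all 9 libraries, with Benjamini-Hochberg adjustment across all genes for each comparison. Fold changes on this scale understate those of low genes, and a change relative to the all-gene median has no test of its own: each adjusted p belongs to the change as measured. Ratios within a domain were compared by exact permutation (scipy 1.17.1, Python 3.11.15). Gene positions are from GENCODE release M21 (GRCm38) and promoter windows from RefSeq. Values are given in the order of replicates 1, 2 and 3. The code was tested on simulated data.

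All 38 members are named with their values. Of the lists of other imprinted genes and of genes around imprint maintenance, those called are named or, with none called, the highest and lowest. The members and lists were chosen with earlier results of these data known. Alternatives covered the pseudocount, the filter, scaling, sample weights, samples in the fit, the log2 Xist level, a replicate block and each library left out.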

Additional observations from a re-analysis of the deposited data

Results flagged for a closer look

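Among the 8 members with means under 1 TPM, which were below the filter in the fit over all 9 libraries, 5 had all 3 homozygous hearts above all 3 wild-type hearts. Of the 10889 untested genes seen in any library 6.89% did. However, 49.5% of those genes were listed at 0 in at least 5 libraries, against 1 of the 8 members, so the shares compare unlike sets. The homozygous means of the 5 members were 0.323 TPM for Phlda2, 0.87 TPM for Slc22a18, 0.327 TPM for Kcnq1ot1, 0.16 TPM for Dio3 and 1.72 TPM for Slc22a3. The order of Slc22a3 also held between heterozygous and wild-type hearts and between homozygous and heterozygous hearts. How many other genes share that full order was not counted. Phlda2 had its highest value, 1.60 TPM, in heterozygous replicate 1, the heart with liver markers at 4182 TPM and lung markers at 1109 TPM, with the other heterozygous hearts at 0; its order between homozygous and wild-type hearts rests on 0.15 against 0.14 TPM. TPM gives no read number, so how many reads these values rest on is unknown.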

How the results depend on the processing

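Over 23 settings the members' median change relative to all genes stayed above 0 between homozygous and wild-type hearts (0.035 to 0.229). The 0.229 was without the 3 libraries highest in markers of other organs, a fit that included Slc22a3, which passed its filter only through homozygous values. The members' median was above 0 in 22 settings between heterozygous and wild-type hearts (-0.061 with the log2 Xist level as a covariate). Between homozygous and heterozygous hearts it was below 0 in 16 settings (0.101 without the 3 libraries). For homozygous against wild-type hearts 12 members stayed above the all-gene median in every setting that tested them (Airn, Asb4, Blcap, Cdkn1c, Mirg, Ndn, Osbpl5, Peg10, Peg3, Plagl1, Ppp1r9a and Zdbf2) and 2 stayed below (Peg12 and Slc38a4); a filter at 5 TPM left out Peg10, Zdbf2 and Peg12, which had 22 settings instead of 23. Members called between homozygous and wild-type hearts numbered 0 to 5 with 1 library left out (2 without wild-type replicate 3, 5 without homozygous replicate 3), 1 without the 3 libraries and 19 with arrayWeights, and 0 in every setting for the other comparisons. The cause of these differences was not tested.

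Genes called between homozygous and wild-type hearts numbered 46, and 22 without a filter, 238 with median-ratio scaling, 71 with quantile scaling (12 higher, 59 lower), 77 after removing mitochondrial and haemoglobin genes, 5068 with arrayWeights, 17 with 2 groups in the fit, 12 at the study's thresholds and 14 (without wild-type replicate 2) to 2161 (without wild-type replicate 3) with 1 library left out, with 279 without homozygous replicate 3. Between heterozygous and wild-type hearts the count was 2, and 1 with a pseudocount of 0.1, a filter at 5 TPM, 2 groups in the fit, the Xist covariate or the study's thresholds, 5 with median-ratio scaling or without the 3 libraries, 4 with quantile scaling or arrayWeights and 1 to 6 with 1 library left out (6 without wild-type replicate 3). Between homozygous and heterozygous hearts it was 6, and 2 with a pseudocount of 5 or no filter, 13 with median-ratio scaling, 11 with quantile scaling, 10 after removing mitochondrial and haemoglobin genes, 43 with arrayWeights, 0 with 2 groups in the fit or the Xist covariate, 1 at the study's thresholds and 1 to 6 with 1 library left out (the lowest without homozygous replicate 1, among others).

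Ratios without overlap numbered 1 to 4 with 1 library left out for homozygous against wild-type hearts (4 without homozygous replicate 3), 0 to 3 for heterozygous against wild-type hearts (3 without wild-type replicate 3) and 0 to 2 for homozygous against heterozygous hearts (2 without heterozygous replicate 2). They numbered 4 and 1 without the 3 libraries for the first and last of these, and 1 with a pseudocount of 5 for heterozygous against wild-type hearts.

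Over the 9 pairs of same-numbered libraries, correlations of deviations ran from -0.031 to 0.36, and 2 exceeded 0.1. Those 2 joined wild-type and heterozygous hearts, at 0.359 for replicate 1 and 0.297 for replicate 3. Libraries of unlike number ran from -0.314 to 0.121. Whether the numbers pair the hearts is hence not settled. With a replicate block 17, 1 and 1 genes were called in the 3 comparisons, in the order above, and 0 members.

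Since no read depth is known, the spread of 3 hearts limits each value. With a median SE of 0.19 on the log2 scale, a difference of the size of the members' median could not be seen in a single gene, and other tissue in several hearts, Xist in 5 and unstated strand use touch the values given.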
